A study of Mus musculus with 6 samples.

Results

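Endothelin genes were followed through the cell classes of the congested mouse liver: the ligand gene Edn1, the receptor genes Ednra and Ednrb, and Ece1, which encodes an enzyme that cuts the ligand's precursor. The 4 genes were chosen by symbol, and all 4 were found among the 25369 genes listed for the 6 libraries. All mice were wild-type males, 8 to 10 weeks old when the inferior vena cava was partially tied (pIVCL), a surgical model in which blood backs up in the liver. Osmotic pumps placed under the skin 2 weeks later delivered either DMSO, the vehicle, or CWHM-12, an inhibitor of the integrins that hold the αV chain, at 100 mg/kg/day for 4 weeks. Every library therefore came from a congested liver, and none from an unoperated animal. There were 3 libraries per group, each of single-cell RNA on the BD Rhapsody whole transcriptome assay. DMSO 1, DMSO 2 and CWHM-12 1 form the labelled batch 2024.6, and DMSO 3, CWHM-12 2 and CWHM-12 3 the batch 2024.12. The labels give no mouse identifier, so p-values measure the spread between libraries, which may be technical. The suspension was mixed on purpose from nonparenchymal cells and hepatocytes, so the shares of classes do not represent the liver.

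Endothelin-1 is a small peptide made mainly by endothelial cells and is among the strongest known constrictors of blood vessels. It is released as an inactive precursor, which endothelin-converting enzyme cuts into the active form. The receptor ETA, from Ednra, raises calcium and contracts smooth muscle and stellate cells. The receptor ETB, from Ednrb, does so too in contractile cells, while in endothelial cells it is linked to nitric oxide release and clearance of the ligand. In the liver, stellate cells wrap the sinusoids and are a main target of the peptide.

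The start of Edn1 is shown because, among the 4 genes, only Edn1 had no overlap between the 2 groups over the whole endothelium. That pattern was not rare, since 6.64% of 12012 genes were likewise lower with inhibitor there. Its adjusted p was 0.993 by edgeR's quasi-likelihood test, and the groups overlapped once all libraries were given the same mix of endothelial classes. Letters that match 3 short motifs, picked from general knowledge of the gene, are in capitals. The motif AGATAA is known for the zinc-finger factors named after it and is found here as TTATCT, its other strand. The motif TGACTAA is of the AP-1 kind, and CATTCC is that of TEAD factors. The window runs from 250 bases before to 50 bases after the annotated start, at chr13:42301226-42301525 on the plus strand (RefSeq, GRCm38.p6, which is not the build of the deposited counts).
Edn1: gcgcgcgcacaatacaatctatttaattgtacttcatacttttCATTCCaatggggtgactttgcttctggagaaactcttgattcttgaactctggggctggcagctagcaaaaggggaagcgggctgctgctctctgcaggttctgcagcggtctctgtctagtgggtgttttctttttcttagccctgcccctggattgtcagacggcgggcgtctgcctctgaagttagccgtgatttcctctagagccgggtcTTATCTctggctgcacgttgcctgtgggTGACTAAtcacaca
Both strands were searched, and the 3 matches do not overlap. TTATCT begins 8 bases and TGACTAA 36 bases after the start, and CATTCC begins 207 bases before it. The same letters occur in 11.2%, 2.35% and 14.7% of all 32851 windows of this length, in the order in which the motifs were named. A match is a description of the letters, and binding was not measured.

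The kept cells numbered 37982, between 3128 and 8346 per library, and a library held between 28220477 and 48100436 molecules (UMIs). They formed 38 clusters, of which 10 stayed unnamed and 2 of mixed lineage were kept apart. A class name here means cells that resemble that type by its markers. The 5 clusters of liver sinusoidal endothelial cells (LSEC) held 9424 cells. A further cluster of 1761 cells, led by Selp, Fbln2, Edn1, Vwf and Rspo3, is called Rspo3 endothelium, and a cluster of 407 cells, led by Cyp1a1, Gja5, Adgrg6, Ly6c1 and Vwf, is called Gja5 endothelium. Stellate cells numbered 2312, Kupffer cells 5485 and hepatocytes 7079. In Rspo3 endothelium the summed level of 10 LSEC markers ranged from 13311 to 21600 CPM (counts scaled to a common total per library), against 21541 to 25016 CPM in LSEC and 5416 to 7413 CPM in Gja5 endothelium. Library DMSO 2 stood apart: of 4621 genes at 20 CPM or more in LSEC, Rspo3 endothelium, stellate and Kupffer cells, 194 (4.2%) were there more than 2-fold below the lowest other library in all 4 classes, against 0 or 1 genes for each other library.

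Edn1 transcripts were concentrated in the smaller endothelial clusters. Rspo3 endothelium held 48.8% of the 7185 Edn1 UMIs in 4.64% of the cells, Gja5 endothelium 15.2% in 1.07% of the cells, and LSEC 14.1% in 24.8% of the cells. The mean level was 827 ± 497 CPM (SD, n = 5) in Gja5 endothelium, 396 ± 215 CPM (SD, n = 6) in Rspo3 endothelium and 32.8 ± 20.3 CPM (SD, n = 6) in LSEC. CPM is scaled by TMM, which evens out composition between libraries. A class with fewer than 20 cells in a library was left out of its levels, here Gja5 endothelium in CWHM-12 1 with 18 cells. The 2 upper levels overlapped between libraries, and both lay above every other class. LSEC, mesothelial and stellate cells overlapped with one another. The mixed Kupffer cluster, which was kept apart, held 9.41% of the Edn1 UMIs in 2.46% of the cells, at 47.9 ± 26.6 CPM (SD, n = 6). After each cell was thinned to 1000 UMIs, 30.6% of Gja5, 22.8% of Rspo3 and 1.92% of LSEC cells held an Edn1 UMI (95% Wilson intervals 26.3% to 35.3%, 20.9% to 24.9% and 1.66% to 2.22%, which cover counting error only). Unthinned, the shares were 56.8%, 52.1% and 6.31%, at median depths of 3856, 5363 and 3672.5 UMIs. B cells, which are not known to make the peptide, held an Edn1 UMI in 0.0798% of thinned cells. By level, Edn1 was 0.540 ± 0.668 CPM in B cells but 10.9 ± 7.70 CPM in T cells (SD, n = 6 each). The T cell libraries overlapped with those of LSEC. Since Edn1 was among the genes used to cluster and leads the Rspo3 cluster, its height there is a description. Clustering without the endothelin genes again gave a cluster of this kind, with 1631 cells, but merged the Gja5 cells with part of LSEC. In that cluster of 1631 cells Edn1 was 298 CPM of total UMIs, pooled over libraries without TMM. Rspo3 endothelium had 319 CPM on that scale.

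**Figure D1:**
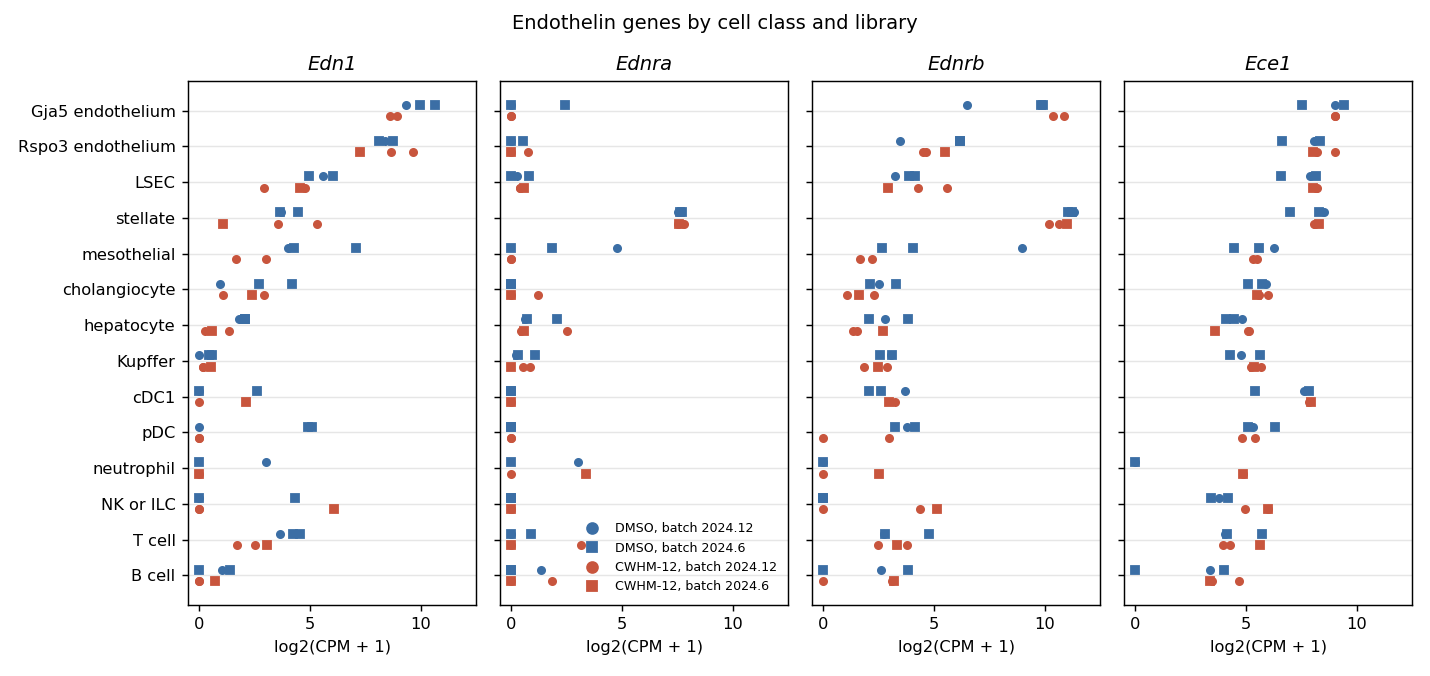
Level of each gene in 14 cell classes, as log2(CPM + 1) on the horizontal axis, with 1 point per library of at least 20 cells; blue is DMSO, red is CWHM-12, squares are batch 2024.6 and circles batch 2024.12. Edn1 points lie highest in the Gja5 and Rspo3 endothelium, Ednra points stand high in stellate cells, Ednrb points in stellate cells and Gja5 endothelium, and Ece1 points are spread over more classes.

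The receptors lay mainly in stellate cells. Ednra and Ednrb were, like Edn1, among the genes used to cluster, so their height in a class is a description. Ece1 was not among those genes. Ednra was at 196 ± 13.6 CPM (SD, n = 6) in stellate cells, whose lowest library, at 184 CPM, was above every library of the other classes with at least 4 libraries. The mixed stellate cluster came next among these, at 50.4 to 62.7 CPM in 4 libraries, followed by a mesothelial library at 26.6 CPM. Portal fibroblasts, measured in 2 DMSO libraries, had 163 and 127 CPM. In LSEC, Ednra was 0.718 CPM at most. Stellate cells and the mixed stellate cluster held 81.2% and 12.9% of its UMIs.

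Ednrb was highest in the same cells. Its level in stellate cells was 1958 ± 496 CPM (SD, n = 6), and stellate cells held 72.2% of its 32584 UMIs. Gja5 endothelium came next at 1019 ± 637 CPM (SD, n = 5) and overlapped with stellate cells. Rspo3 endothelium had 40.3 ± 26.4 CPM and LSEC 18.5 ± 14.8 CPM (SD, n = 6 each). At 1000 UMIs per cell, 78.6% of stellate cells, 48.0% of Gja5 cells and 1.46% of LSEC held an Ednrb UMI, against 0.519% of B cells, a class not known for this receptor (unthinned 92.5%, 68.8%, 3.51% and 1.11%). By level, Ednrb was 5.66 ± 5.11 CPM in B cells and 10.6 ± 8.03 CPM in T cells (SD, n = 6 each). The LSEC libraries overlapped with those of both. In LSEC the gene was uneven: 60 cells with at least 5 UMIs held 60.1% of its 974 UMIs. Of 2312 stellate cells, 1147 held both receptors, 992 Ednrb alone, 40 Ednra alone and 133 neither. The cells with Ednra were deeper, at a median of 4649 against 1966 UMIs, and how far depth sets these counts was not tested.

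Ece1 was spread more evenly. Its level was 485 ± 182 CPM in Gja5 endothelium (SD, n = 5), 290 ± 133 in Rspo3 endothelium, 276 ± 82.1 in stellate cells and 244 ± 76.5 CPM in LSEC (SD, n = 6 each), with 186 ± 82.5 CPM in cDC1 dendritic cells (SD, n = 5). No neighbours in the order of 14 classes were separated for this gene. Between cDC1 cells and cholangiocytes, next in the order, only DMSO 2 overlapped. In cDC1 cells it was at 41.1 CPM and the other libraries at 196 to 240 CPM, against 32.6 to 61.7 CPM in cholangiocytes. LSEC held 42.7% of its UMIs. The other genes of the system were scarce: 11 UMIs of Edn2 and 6 of Edn3, which encode the other ligands, 3 of Ece2 and 22 of Kel, which encode related converting enzymes. Of the genes for enzymes that break endothelin down, Mme had 768 UMIs, mostly in cholangiocytes (323) and hepatocytes (314), and Ctsa had 63450, 31699 of them in Kupffer cells.

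The treated libraries were first compared over the whole endothelium. Summed over the 7 endothelial clusters, a grouping added after the data were seen, Edn1 was at 135, 234 and 179 CPM with vehicle (DMSO 1 to 3) against 59.4, 89.0 and 37.5 CPM with inhibitor (CWHM-12 1 to 3). Every treated library lay below every vehicle library. The fitted log2 fold change was -1.57 (SE 0.39) and the within-batch differences were -1.58 and -1.63, but the adjusted p was 0.993 by edgeR's quasi-likelihood test with Benjamini-Hochberg adjustment (unadjusted p = 0.00659). Of 12012 genes 0.0% were called, and 6.64% were likewise lower in every treated library. Unadjusted, 306 genes had p under 0.05, and DESeq2 called 3 (Adh6b, Capn11 and Rasd1).

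The endothelial cells were also distributed differently among the clusters. In the clustering without endothelin genes, the counterpart of the Rspo3 cluster made up 29.04%, 22.6% and 36.3% of the cells in that clustering's endothelial clusters with vehicle (DMSO 1 to 3), against 23.2%, 9.24% and 1.80% with inhibitor (CWHM-12 1 to 3). A cluster of 789 cells, 56.8% of them unnamed in the main clustering, was left out of these totals. The 2 treated libraries of batch 2024.12 lay below every vehicle library. With the same fixed weight for LSEC, Rspo3 and Gja5 endothelium in every library (72.3%, 24.2% and 3.56% of endothelial UMIs), Edn1 was 121, 200 and 133 CPM with vehicle (DMSO 1 to 3) against 58.2, 130 and 205 CPM with inhibitor (CWHM-12 1 to 3). The difference of the means was -20.4 CPM with fixed weights (exact two-sided permutation test, p = 0.9) and -122 CPM with each library's own weights (p = 0.1, the smallest that 20 assignments allow). The treated and vehicle libraries overlapped once the weights were fixed. Values over the whole endothelium keep the 18 Gja5 cells of CWHM-12 1, with 20 Edn1 UMIs, and the fixed weights give them 3.56%. The fixed-weight value of CWHM-12 3 puts a weight of 24.2% on 50 Rspo3 cells, which held 1.53% of that library's endothelial UMIs. Without that library the fixed-weight difference was -57.4 CPM (exact two-sided permutation test, p = 0.4), and it was -35.5 CPM without DMSO 1, 3.96 CPM without DMSO 2 and 16.1 CPM without CWHM-12 1. In T cells, which are not known as a source, Edn1 was 17.6, 22.1 and 11.4 CPM with vehicle and 7.34, 4.76 and 2.27 CPM with inhibitor, from 54 UMIs in all. These groups did not overlap either. Of the 7782 genes that passed the filter on low counts in T cells, 4.07% did likewise in this direction. Edn1 was not among those 7782 genes, so this share is for genes with more counts. What part of any class's Edn1 is RNA from other cells was not tested.

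**Figure D2:**
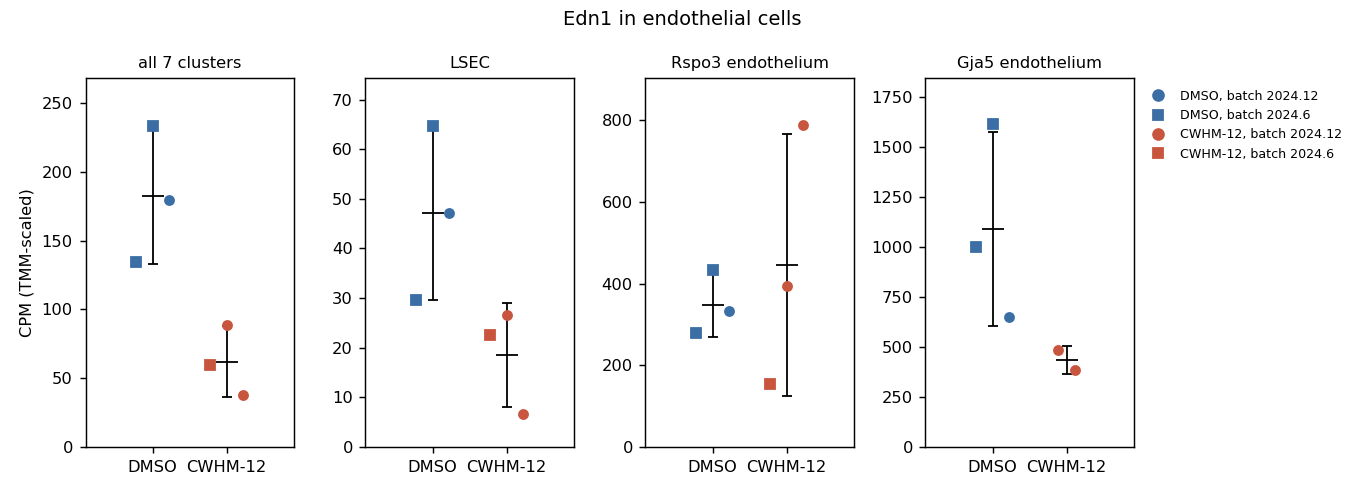
Edn1 level (CPM, vertical axes from 0, scales differ) in all endothelial clusters and in each group of them, 1 point per library, with the mean and SD in black; blue is DMSO, red is CWHM-12, squares are batch 2024.6 and circles batch 2024.12. The groups do not overlap over all 7 clusters, in LSEC or in Gja5 endothelium, and overlap in Rspo3 endothelium.

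Within the endothelial groups the main fits of Edn1 were all negative and none passed, but the batches had opposite signs in Rspo3 endothelium. In LSEC Edn1 was 29.7, 64.6 and 47.1 CPM with vehicle (DMSO 1 to 3) against 22.5, 26.5 and 6.65 CPM with inhibitor (CWHM-12 1 to 3). These groups did not overlap, as for 5.6% of 11168 genes in this direction, and the log2 fold change of -1.29 (SE 0.56) did not pass (edgeR adjusted p = 0.998). With no filter on low counts it was -1.26 and passed (edgeR adjusted p = 0.000372), and over 14 alternatives the adjusted p ranged up to 1.0. No gene was called in LSEC (0.0%). Unadjusted, 236 genes had p under 0.05, and DESeq2 called 0. The makeup of LSEC differed from vehicle in CWHM-12 2 and 3, both of batch 2024.12. In CWHM-12 1 the shares of the 2 clusters given next lay within the vehicle range. Cluster 0, the LSEC cluster with Edn1 at 45.2 CPM (of total UMIs, without TMM), made up 45.4%, 51.1% and 40.2% of endothelial cells with vehicle (DMSO 1 to 3) against 46.9%, 33.9% and 7.54% with inhibitor (CWHM-12 1 to 3). Cluster 7, with 2.86 CPM on that scale, made up 4.03%, 4.99% and 7.32% against 4.26%, 24.4% and 29.9%. Within cluster 0 the groups overlapped, at 29.7, 71.6 and 63.0 CPM with vehicle (DMSO 1 to 3) against 34.5, 46.5 and 10.3 CPM with inhibitor (CWHM-12 1 to 3). The part of this makeup in the LSEC result was not tested.
In Rspo3 endothelium Edn1 was 278, 433 and 332 CPM with vehicle (DMSO 1 to 3) against 153, 395 and 787 CPM with inhibitor (CWHM-12 1 to 3). Treated libraries lay on both sides of the vehicle range, and the highest came from only 50 cells. The log2 fold change was -0.20 (SE 0.51, edgeR adjusted p = 1.0), while the within-batch differences had opposite signs, -1.18 and 0.75. Without the batch term it was 0.30. Of 9442 genes 0.0% were called. Unadjusted, 117 genes had p under 0.05, and DESeq2 called 1, Igfbp5. Marker levels in this cluster moved with the libraries as well. The summed level of 11 vascular endothelial markers was 2046 to 2574 CPM with vehicle against 2603, 2860 and 5041 CPM in CWHM-12 1 to 3, that of the LSEC markers 18390 to 21600 against 21130, 17181 and 13311 CPM, and that of 12 stellate markers 121 to 293 against 277, 332 and 598 CPM. Their part in the result was not tested.
In Gja5 endothelium Edn1 was 1000, 1611 and 651 CPM with vehicle (DMSO 1 to 3) against 485 and 386 CPM with inhibitor (CWHM-12 2 and 3). Both treated libraries were below the vehicle libraries, as for 10.4% of 4897 genes in this direction. With the batch term, only DMSO 3 stands against them, and the log2 fold change was -0.58 (SE 0.39, edgeR adjusted p = 0.836). Without the batch term it was -1.34, and with 1 library left out at a time it ranged from -0.71 without CWHM-12 2 to -0.34 without CWHM-12 3. Again 0.0% of genes were called. Unadjusted, 295 genes had p under 0.05, and DESeq2 called 2, Cpe and Ednrb.

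Neither receptor gene passed in stellate cells, and their responses were not compared with each other. Ednra was 207, 194 and 184 CPM with vehicle (DMSO 1 to 3) against 189, 184 and 218 CPM with inhibitor (CWHM-12 1 to 3). The groups overlapped, and the log2 fold change was 0.03 (SE 0.19, edgeR adjusted p = 1.0).
Ednrb was 2372, 2077 and 2507 CPM with vehicle (DMSO 1 to 3) against 2011, 1604 and 1174 CPM with inhibitor (CWHM-12 1 to 3). Every treated library was below every vehicle library, as for 4.53% of 10117 genes in this direction. The log2 fold change was -0.50 (SE 0.24, edgeR adjusted p = 1.0, unadjusted 0.0761), with within-batch differences of -0.14 and -0.87. No gene was called in stellate cells (0.0%). Unadjusted, 179 genes had p under 0.05, and DESeq2 called 0. Without CWHM-12 3 the log2 fold change of Ednrb was -0.11. The summed level of 10 LSEC markers in these stellate cells was 2425 to 6805 CPM in vehicle and 1807 to 5913 CPM in treated libraries, and its part in the result was not tested.

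Ednrb in Gja5 endothelium was higher in CWHM-12 2 and 3. It was 969, 898 and 88.3 CPM with vehicle (DMSO 1 to 3) against 1315 and 1827 CPM with inhibitor (CWHM-12 2 and 3). Both treated libraries were above all vehicle libraries, as for 10.8% of genes in this direction. CWHM-12 1, left out with 18 cells, had 122 Ednrb UMIs. Of total UMIs, without TMM, it was at 781 CPM, against 882 and 826 CPM in DMSO 1 and DMSO 2 of its batch. DMSO 3 was at 77.1 CPM on that scale. The log2 fold change of 4.15 (SE 0.45) had an edgeR adjusted p of 0.283 and rests on DMSO 3, the only vehicle library of its batch, with 8 Ednrb UMIs in 25 cells. Without the batch term it was 1.22. DESeq2 called it (adjusted p = 1.11e-05), and so did edgeR without CWHM-12 2, without CWHM-12 3 or with no filter on low counts. The summed level of 12 stellate markers in these cells was 222 to 472 CPM with vehicle and 660 and 410 CPM in CWHM-12 2 and 3, against 32588 to 51447 CPM in stellate cells. That of 8 Kupffer markers was 156 to 501 CPM with vehicle and 2447 and 485 CPM in CWHM-12 2 and 3. The part of either list in the result was not tested.
In LSEC Ednrb was 16.8, 13.6 and 8.28 CPM with vehicle (DMSO 1 to 3) against 6.55, 18.5 and 47.1 CPM with inhibitor (CWHM-12 1 to 3). The groups overlapped, and the within-batch differences had opposite signs, -1.17 and 1.80. Cluster 4 of LSEC held 660 of the 974 UMIs, and 465 of them came from CWHM-12 3.

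**Figure D3:**
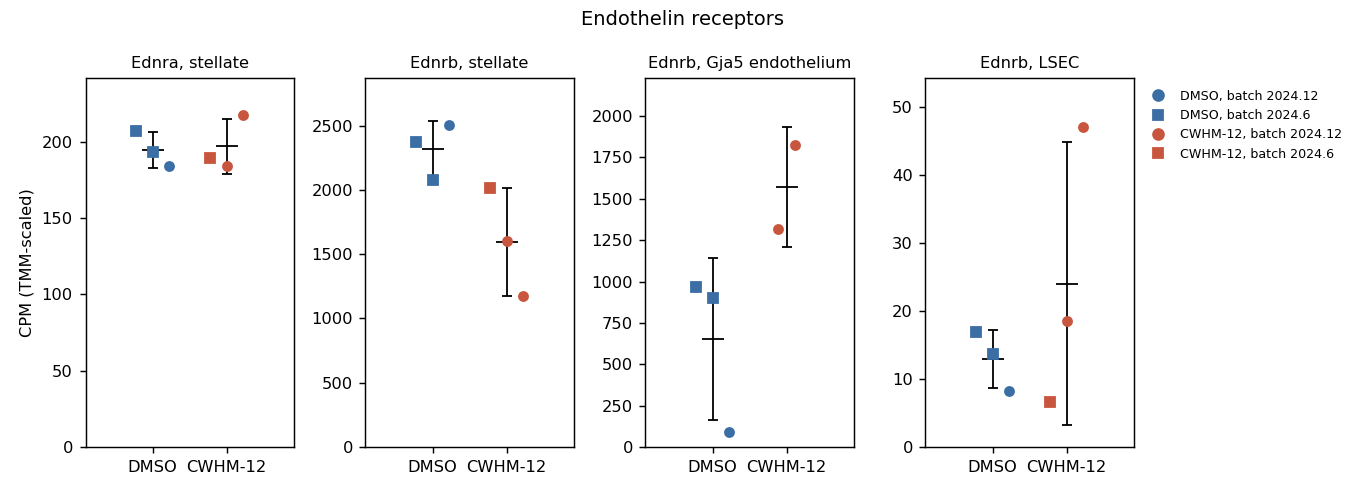
Level of Ednra and Ednrb (CPM, vertical axes from 0, scales differ) in stellate cells and of Ednrb in Gja5 endothelium and LSEC, 1 point per library, with the mean and SD in black; blue is DMSO, red is CWHM-12, squares are batch 2024.6 and circles batch 2024.12. Ednrb is lower in all 3 treated libraries in stellate cells. In Gja5 endothelium, shown without CWHM-12 1, it is higher in CWHM-12 2 and 3, and DMSO 3 is at 88.3 CPM.

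Ece1 was lowest in DMSO 2 in most classes, and its groups overlapped in LSEC and in stellate cells. In LSEC it was 287, 93.7 and 238 CPM with vehicle (DMSO 1 to 3) against 261, 287 and 296 CPM with inhibitor (CWHM-12 1 to 3). In stellate cells it was 315, 125 and 367 CPM with vehicle (DMSO 1 to 3) against 309, 267 and 272 CPM with inhibitor (CWHM-12 1 to 3). DMSO 2 was the lowest library in 12 of the 16 classes compared, at 32.7% of the median of the other libraries in LSEC and 40.6% in stellate cells. Ece1 was not among the 194 genes that were more than 2-fold below the other libraries in all 4 classes. It missed this only in Kupffer cells, where DMSO 2 was at 18.3 CPM and the lowest other library at 26.4 CPM. In LSEC, Rspo3 endothelium and stellate cells DMSO 2 was at 93.7, 96.3 and 125 CPM. The lowest other libraries there were at 238, 260 and 267 CPM. The log2 fold changes were 0.37 (SE 0.39) in LSEC and 0.01 (SE 0.36) in stellate cells, with edgeR adjusted p = 0.998 and 1.0. Without DMSO 2 they were 0.11 in LSEC and -0.26 in stellate cells.

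**Figure D4:**
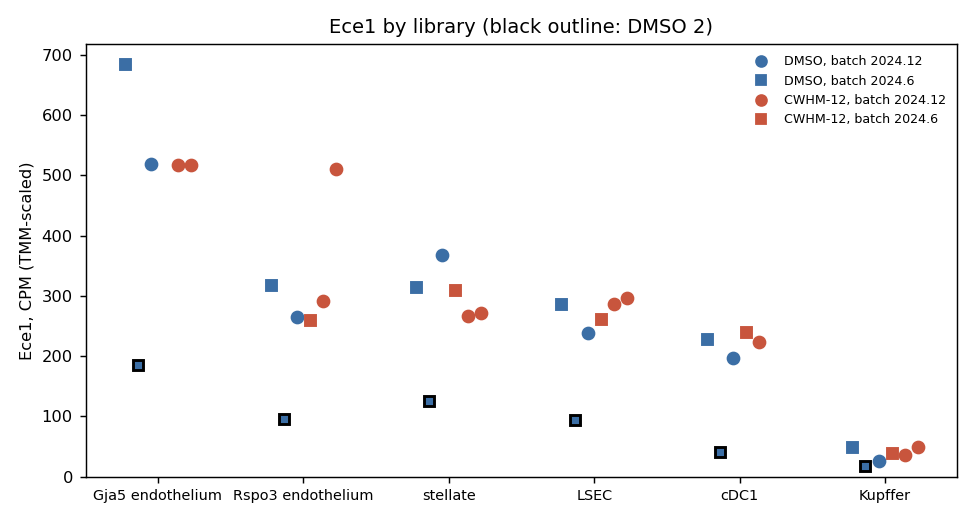
Ece1 level (CPM, vertical axis from 0) in 6 cell classes, 1 point per library in the order DMSO 1 to 3, CWHM-12 1 to 3; blue is DMSO, red is CWHM-12, squares are batch 2024.6, circles batch 2024.12 and the black outline marks DMSO 2. DMSO 2 is the lowest library in each class shown, at 93.7 CPM in LSEC.

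In Kupffer cells Ednrb had a log2 fold change of -0.62 (SE 0.42) and Ece1 of 0.47 (SE 0.37), and 0.0% of 11221 genes passed. In 6 other classes at least 1 member had enough counts to be tested. Ece1 ranged there from -0.86 in mesothelial cells to 0.51 in cDC1 cells, and Ednrb in hepatocytes had -1.29 (SE 0.49, edgeR adjusted p = 1.0). None of these passed, where 0.0% of genes did in B cells, T cells, cDC1 cells and hepatocytes, 0.0111% in cholangiocytes and 0.0171% in mesothelial cells.

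Whether a member responded differently in 2 cell classes was tested as an interaction. Between stellate cells and LSEC, Edn1 differed by 1.81 on the log2 scale (SE 0.55, edgeR adjusted p = 0.88) and Ednrb by -1.28 (SE 0.68, edgeR adjusted p = 0.956), and neither passed, while 2 of 11823 genes (0.0169%) did. Without CWHM-12 1 the difference for Edn1 was 2.31 and passed (edgeR adjusted p = 0.00456).
Between Gja5 and Rspo3 endothelium, a test added after the data were seen and run on 5 libraries, 59 of 8536 genes passed (0.691%), Edn1 and Ednrb among them. The response of Edn1 was lower in Gja5 endothelium by a log2 difference of -1.94 (SE 0.33, edgeR adjusted p = 0.00257), and that of Ednrb was higher by 2.37 (SE 0.31, edgeR adjusted p = 0.000189). With a batch effect of its own for each class, the difference was -1.21 for Edn1 and no longer passed (edgeR adjusted p = 0.195), and 2.97 for Ednrb, which did (edgeR adjusted p = 0.00248). With CWHM-12 1 left out, batch 2024.6 held vehicle libraries only. The differences with this batch effect therefore rest on CWHM-12 2 and 3 against DMSO 3 alone, which had 8 Ednrb UMIs in 25 Gja5 cells.

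**Figure D5:**
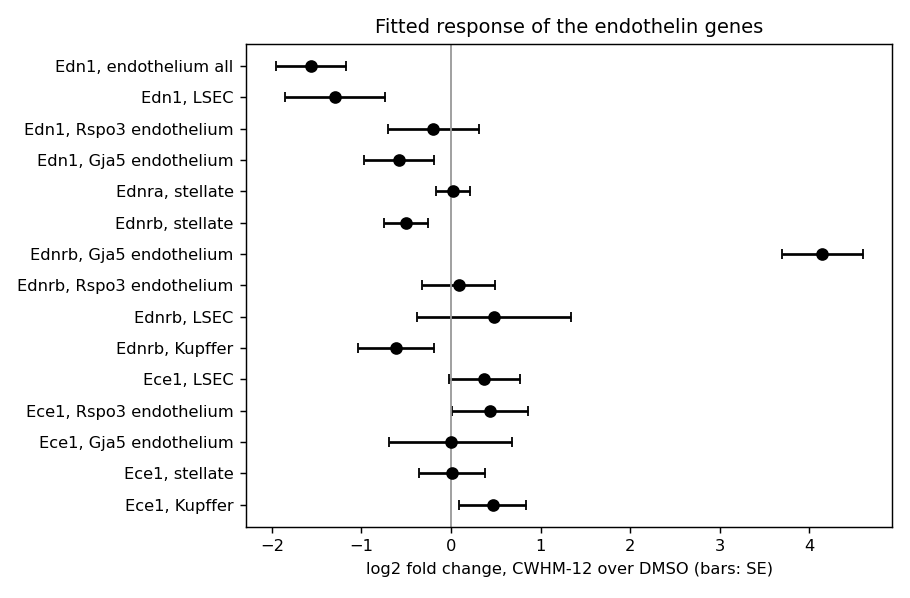
Fitted log2 fold change of CWHM-12 over DMSO for each gene and class, with the SE as bars. The fold change of Ednrb in Gja5 endothelium stands at 4.15 and those of Edn1 over the endothelium and in LSEC at -1.57 and -1.29; none of those shown passed an adjusted p of 0.05.

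The wider pathway was read from a list of 85 genes in 9 groups: ligands, receptors, enzymes, effectors, dilator genes, regulators of Edn1, contractile proteins and other vasoactive receptors. None passed in LSEC, Rspo3, Gja5, stellate or Kupffer cells. In LSEC 42 of 61 tested genes had a positive fold change and 19 a negative one, with a median of 0.12 against 0.02 over all genes. In stellate cells 39 of 74 were positive and 35 negative, with a median of 0.02 against -0.0016 over all genes.
Klf2, a flow-responsive transcription factor that is known to hold down Edn1, was 278, 239 and 460 CPM with vehicle (DMSO 1 to 3) against 496, 609 and 1229 CPM with inhibitor (CWHM-12 1 to 3) in LSEC. The groups did not overlap, as for 5.21% of genes in this direction, and its log2 fold change was 0.97 (SE 0.29, edgeR adjusted p = 0.998). Smallest in p beside it in LSEC were Rgs5, a brake on G-protein signals, at 1.02 and Fos, a part of AP-1, at 0.69. Rgs5 is also among the stellate markers used here, and what part of it in LSEC is RNA from other cells was not tested. Smallest in p in Rspo3 endothelium were Jun, the partner of Fos, at 0.64, the dilator peptide gene Adm at 0.47 and Klf2 at 0.89. In Gja5 endothelium, beside Ednrb, they were Klf2 at 1.68 and Ccn2, a matricellular gene, at -0.90. In Kupffer cells they were Jun at 0.61, Klf2 at 1.27 and the TGF-beta receptor gene Tgfbr1 at -0.51.
In stellate cells the smallest p-values belonged to Tgfb1, the gene of TGF-beta 1, at 1.00, Gucy1a1, a subunit of the nitric oxide receptor, at 0.44 and Calcrl, a receptor for dilator peptides, at 0.42. Acta2, the actin of contractile stellate cells, was 55.1, 305 and 117 CPM with vehicle (DMSO 1 to 3) against 419, 181 and 23.01 CPM with inhibitor (CWHM-12 1 to 3), and the groups overlapped widely. Its log2 fold change was 0.52 (SE 0.80), that of Ccn2 was 0.37 (SE 0.25) and that of Klf2 0.64 (SE 0.46). In LSEC, Nos3, which makes nitric oxide, had 0.39 (SE 0.18) and Ccn2 -0.19 (SE 0.34).

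Genes of the most similar pattern were read from mean log2(CPM + 1) over 15 classes, among 11722 genes at 20 CPM or more in at least 1 class. For Edn1 they were Jam2, Cavin2, Reep1, Hspa12b and Cdh4, with Pearson r from 0.91 to 0.94. For Ednra they were Tmem100, Tnc, Mamdc2, Adamts13 and Steap4 (0.96 to 0.97), and for Ednrb Cadm3, Fbn1, Col5a2, Fbln5 and Npr3 (0.90 to 0.94). For Ece1 they were Gm10687, Paqr4, Adgra2, Gm15270 and Tmcc2 (0.89 to 0.90). These are descriptions across classes that share their libraries.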

How the data were processed

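The authors deposited raw counts, whole numbers of UMIs for each gene in each barcode, per the file headers, from 6 libraries of mouse liver cells. The labelled genome build is GRCm39, from the submitters' processing notes. The aligner is not given in the sources used here, and no genome coordinates of GRCm39 were used. The 4 members and the lists were chosen with earlier results of these data known.

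Barcodes with at least 300 genes, 500 UMIs and at most 30% mitochondrial UMIs were kept. The automatic threshold of Scrublet marked 0.037% to 1.09% of cells, so a common score of 0.25 was used, which removed 715 of 38697. No pair of libraries shared over 5 barcodes. Cells were clustered with scanpy 1.11.5 and leidenalg 0.10.2 (2000 variable genes, 40 components, 20 neighbours, resolution 1.5), without integration, and clusters were named by hand from fixed markers and their leading genes. Endothelium outside LSEC was split into 2 clusters after the data were seen.

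Counts were summed per class and library and compared by edgeR 4.0.16, quasi-likelihood test (TMM, its filter on low counts, a batch term, Benjamini-Hochberg over all genes of the class), in R 4.3.3. The script was tested on simulated data. SEs were worked back from the F statistic. Within-batch values are differences of mean log2 CPM. DESeq2 1.42.0 was an alternative.

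Named were the 4 members in the main classes, pathway genes that passed or else the 3 of smallest p, the minor endothelin genes, Klf2, Nos3, Acta2 and Ccn2 in LSEC and stellate cells, and the 5 genes most like each member.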

Additional observations from a re-analysis of the deposited data

Results flagged for a closer look

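The responses of Edn1 and Ednrb to CWHM-12 differed between Gja5 and Rspo3 endothelium by an interaction test that was added after the data were seen. The log2 difference, Gja5 minus Rspo3, was -1.94 for Edn1 and 2.37 for Ednrb. It was computed without CWHM-12 1, which had 18 Gja5 cells, so batch 2024.6 held vehicle libraries only. In the Gja5 cells of CWHM-12 1, Ednrb was 781 CPM of total UMIs. It was 882 and 826 CPM in DMSO 1 and DMSO 2 of that batch. Both genes were among those used to cluster. Edn1 leads the Rspo3 cluster, and clustering without the endothelin genes did not return the Gja5 cluster as a cluster of its own. Neither difference was computed on groups free of these genes.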

How the results depend on the processing

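Of 452 values recomputed, 387 kept their direction and side of the threshold or moved by less than the spread. Without a filter on low counts, edgeR called 77 genes in LSEC, 8 in Rspo3 and 34 in Gja5 endothelium, 26 in stellate and 32 in Kupffer cells, the log2 fold change of Edn1 in LSEC (-1.26) and of Ednrb in Gja5 endothelium (4.32) passed, and Ece1 in Gja5 endothelium turned to 0.16. DESeq2 called 1 gene in Rspo3 endothelium, 2 in Gja5 endothelium (Ednrb at 4.14, the 1 gene of the pathway list), 3 over the endothelium and 1 in Kupffer cells. Without a batch term, log2 fold changes turned to 0.30 for Edn1 and -0.64 for Ednrb in Rspo3 endothelium, 0.37 for Edn1 in stellate cells and 0.16 for Ece1 in Gja5 endothelium. A stricter cell filter gave 0.0054 for Edn1 and -0.015 for Ece1 in stellate cells, clustering without endothelin genes -0.0025 for Ece1 in stellate cells, and classes from marker scores -0.027 for Ednrb in LSEC, an Edn1 level of 64.6 CPM in LSEC and an Ednra level of 163 CPM in stellate cells. A batch effect of its own for each class brought the Edn1 difference between Gja5 and Rspo3 endothelium to -1.21, and fixed weights the Edn1 difference over the endothelium to -20.4 CPM. The causes were not tested.

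With the replicate number as a block (replicate block), log2 fold changes turned to 0.070 for Edn1 and -0.81 for Ednrb in Rspo3 endothelium and to 0.73 for Ece1 in Gja5 endothelium, and 1 gene was called in Gja5 endothelium. The numbers were not taken to pair the libraries. Deviations of the libraries numbered 1, 2 and 3 from their group means correlated at 0.07, -0.055 and 0.022 in LSEC and at 0.153, 0.149 and -0.075 in stellate cells, so not every pair was above 0.1 in either class, and DMSO 2 and CWHM-12 2 are in different batches.

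Leaving out 1 library at a time gave these ranges of log2 fold change: Ednrb in LSEC -1.23 to 1.99, in Rspo3 endothelium -0.68 to 1.13, in Gja5 endothelium 3.98 to 4.41 and over the endothelium -0.85 to 3.37; Edn1 in Rspo3 endothelium -1.22 to 0.80 in Gja5 endothelium -0.71 to -0.34 and in stellate cells -3.74 to 1.06; Ednra in stellate cells -0.051 to 0.13; and Ece1 in stellate cells -0.45 to 0.51 and in Gja5 endothelium 0.017 to 0.086. Genes called ranged from 3 to 12 in Gja5 endothelium (0 to 1 of the pathway list) and from 0 to 2 in Kupffer cells. The Edn1 difference between stellate cells and LSEC ranged from 1.09 to 2.31. Gja5 endothelium without DMSO 3 could not be fitted with a batch term. The Edn1 difference over the endothelium ranged from -144.7 to -96.7 CPM with each library's own weights and from -57.4 to 16.1 CPM with fixed weights, where it turned to 3.96 CPM without DMSO 2 and 16.1 CPM without CWHM-12 1. Depth is low for the 25 Gja5 cells of DMSO 3 and the 50 Rspo3 cells of CWHM-12 3.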
